A study of Mus musculus with 4 samples.

Results

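IGHV5-2 is a variable (V) gene segment of the mouse immunoglobulin heavy-chain locus, and the heavy chains that use it are described here across single bone marrow cells. The members were every assembled heavy-chain contig listed with V gene IGHV5-2, which gave 1447 of 3393 heavy-chain contigs in the Mll3/4 deleted Kit+ library and 62 of 9810 in the control B220lo library. Each member contig came from a different cell barcode, so the members were 1509 of the 12554 barcodes with a heavy chain in the whole series. The control Kit+ library had 0 IGHV5-2 contigs among 34 heavy-chain contigs, which allows a share of up to 8.82% (3 counts of the total), and the Mll3/4SI Kit+ library had 0 among 25, which allows up to 12%. The gene was chosen by its share of heavy-chain contigs in these libraries, so its shares are a description and were not tested.

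Donor cells marked by CD45.2 were taken from bone marrow of transplanted mice at 10 weeks and sorted either for Kit, found on stem and progenitor cells, or for low B220, found on cells of the B lineage. Kit+ cells came as 1 library of each of 3 genotypes, control, Mll3/4 deleted and Mll3/4SI, and B220lo cells as 1 control library, all profiled with the 10x Genomics 5′ version 2 chemistry. MLL3 and MLL4 are histone methyltransferases that act at enhancers. The labels do not say how many mice went into a library, how the deletion was made or what the letters SI stand for, and they name no strain or age of the mice.

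A heavy-chain variable exon is built in developing B cells by joining a D segment to a J segment and then a V gene to that DJ join. The RAG1 and RAG2 enzymes cut the DNA, and the polymerase TdT, encoded by Dntt, adds bases at the joints that no gene segment encodes. The finished heavy chain first pairs with the surrogate light chain, made from VpreB and lambda5 (Igll1), before a kappa or lambda light chain is rearranged. IGHV5-2 lies at the D end of the V gene array and is known for frequent rearrangement in early B-cell progenitors, and many of its heavy chains are known to pair poorly with the surrogate light chain.

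In the GENCODE M21 annotation of GRCm38, the genome also called mm10, Ighv5-2 (ENSMUSG00000076633) is a V gene of 2 exons on the minus strand at chr12:113578504-113578990. The nearest annotated D segment, Ighd5-1, lies 51694 bases away, and 2 V pseudogenes, Ighv2-1 and Ighv5-1, lie between them. Among the 100 V genes seen in either library, all of which matched the annotation, IGHV5-2 was the first from the D segments. The V exon from the first to the third framework was identical in 1508 of the 1509 member contigs and to the annotated transcript, and is shown with its first and second complementarity-determining regions in capitals because all members share it.
IGHV5-2 V region: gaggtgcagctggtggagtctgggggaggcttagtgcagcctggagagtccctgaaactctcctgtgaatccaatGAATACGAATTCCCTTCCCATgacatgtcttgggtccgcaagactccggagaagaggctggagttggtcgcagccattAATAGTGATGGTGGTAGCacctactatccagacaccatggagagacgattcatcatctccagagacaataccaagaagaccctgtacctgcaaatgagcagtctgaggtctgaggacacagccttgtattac
By the same measure, identity to the commonest sequence of the V gene, 96.0% of 9748 other B220lo contigs (95.5% to 96.3%) and all 1946 other deleted contigs matched. All intervals here are exact 95% intervals, Clopper-Pearson for shares, Poisson for counts and binomial order statistics for medians, and limits beside a count of 0 are 3 counts of the total. Both cover counting error only. Cells of one clone are not independent, and with 1 library per group there is no replicate spread and no test.

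What set the member cells of the deleted library apart from one another was the third complementarity-determining region (CDR3), the stretch that spans the V-D-J joints. The 4 largest IGHV5-2 clones and 1 of the 2 next in size, tied at 20 cells, are shown because their CDR3 ended in 1 of only 2 ways, given in capitals. A clone here is all cells with the same V gene, J gene and CDR3 nucleotides.
Deleted clone 1, 448 cells: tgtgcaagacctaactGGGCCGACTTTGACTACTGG
Deleted clone 2, 370 cells: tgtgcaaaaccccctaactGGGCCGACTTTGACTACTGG
Deleted clone 3, 232 cells: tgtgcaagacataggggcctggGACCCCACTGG
Deleted clone 4, 80 cells: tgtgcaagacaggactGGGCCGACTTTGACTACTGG
Deleted clone 5, 20 cells: tgtgcaagactggGACCCCACTGG
The germline pieces they were built from follow, so that the joints can be read.
Germline V end of Ighv5-2 from the conserved cysteine codon: TGTGCAAGACA
Germline Ighd4-1: ctaactgggac
Germline Ighj2 up to the tryptophan codon: actactttgactactgg
The largest clones of other V genes in the same library that carried these ends are shown for comparison, each with its own V gene in front.
IGHV5-15, 170 cells: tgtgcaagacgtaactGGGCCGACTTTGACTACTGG
IGHV2-6-8, 106 cells: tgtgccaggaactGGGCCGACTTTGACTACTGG
IGHV11-2, 102 cells: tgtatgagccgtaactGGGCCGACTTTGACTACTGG
IGHV7-1, 99 cells: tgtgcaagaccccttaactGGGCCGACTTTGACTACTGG
IGHV7-1, 41 cells: tgtgcaagagaactggGACCCCACTGG
IGHV1-47, 17 cells: tgtgcaagagaactggGACCCCACTGG
Deleted clones 6 to 8 and the 3 B220lo clones of 2 cells carried neither end.
Deleted clone 6, 20 cells: tgtgcaagtacagcgtactttgactactgg
Deleted clone 7, 17 cells: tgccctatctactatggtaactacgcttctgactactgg
Deleted clone 8, 11 cells: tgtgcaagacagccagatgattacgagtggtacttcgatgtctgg
B220lo clone 1, 2 cells: tgtgcaagcccctttgactactgg
B220lo clone 2, 2 cells: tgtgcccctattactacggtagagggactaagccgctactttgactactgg
B220lo clone 3, 2 cells: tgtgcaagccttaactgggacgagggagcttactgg

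IGHV5-2 ranked first among V genes in the deleted library and 54 in the B220lo library by distinct CDR3. Its share of heavy-chain contigs was 42.6% (40.97% to 44.3%) in the deleted library and 0.632% (0.485% to 0.809%) in the B220lo library. Counting each CDR3 nucleotide sequence once removes the weight of large clones, and the share was then 23.0% of 631 sequences (19.8% to 26.5%) against 0.630% of 9367 (0.480% to 0.812%), a ratio of 36.5. Large clones therefore carried part of the share by contigs, and the share by distinct sequences still stood 3.82 times above that of the next V gene of the deleted library, IGHV2-9.

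The other leading V genes of the deleted library were IGHV2-9 with 6.02% of distinct CDR3, IGHV7-1 with 5.86%, IGHV2-6 with 5.55% and IGHV2-6-8 with 5.23%. Among B220lo cells IGHV1-26 led with 4.77%, followed by IGHV8-8, IGHV9-3, IGHV1-64 and IGHV1-81, which lie farther along the V array. Of 73 V genes with at least 30 distinct CDR3 over both libraries, 15 had at least a 2-fold higher share in the deleted library, which is 20.5% of them, and 47 had at least a 2-fold lower share, which is 64.4%. IGHV5-2 was among the 15, and the log2 ratio of its shares, 5.19, was the highest of those that could be computed among the 73. Below that minimum IGHV2-7, with 7 and 1 distinct CDR3, had a log2 ratio of 6.70. Within the 73 the V genes with the nearest log2 ratios were IGHV2-6-8 at 4.85, IGHV2-6 at 3.70 and IGHV11-2 at 3.61.

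V genes close to the D segments were used more in the deleted library in general. The 25 V genes nearest the D segments, IGHV5-2 included, held 90.8% of its distinct CDR3 and 19.3% of those in the B220lo library. IGHV2-2, the next V gene, starts 9763 bases from IGHV5-2 and held 3.96% of distinct CDR3 in the deleted and 2.12% in the B220lo library, and IGHV5-4, the one after it, held 3.01% and 1.86%. The next 2, IGHV2-3 and IGHV5-6, held 3.96% and 3.17% in the deleted and 0.737% and 1.52% in the B220lo library. The plot of V use by position shows IGHV5-2 far above these 4 neighbours in the first library and below each of them in the other. Genotype and sort gate differ between these 2 libraries, and so do Y-linked transcripts, summed over 4 genes, at 149 CPM (counts scaled to the library's total UMIs) in the deleted and 0.515 CPM in the B220lo library. These differences cannot be told apart as sources of the V use.

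**Figure D1:**
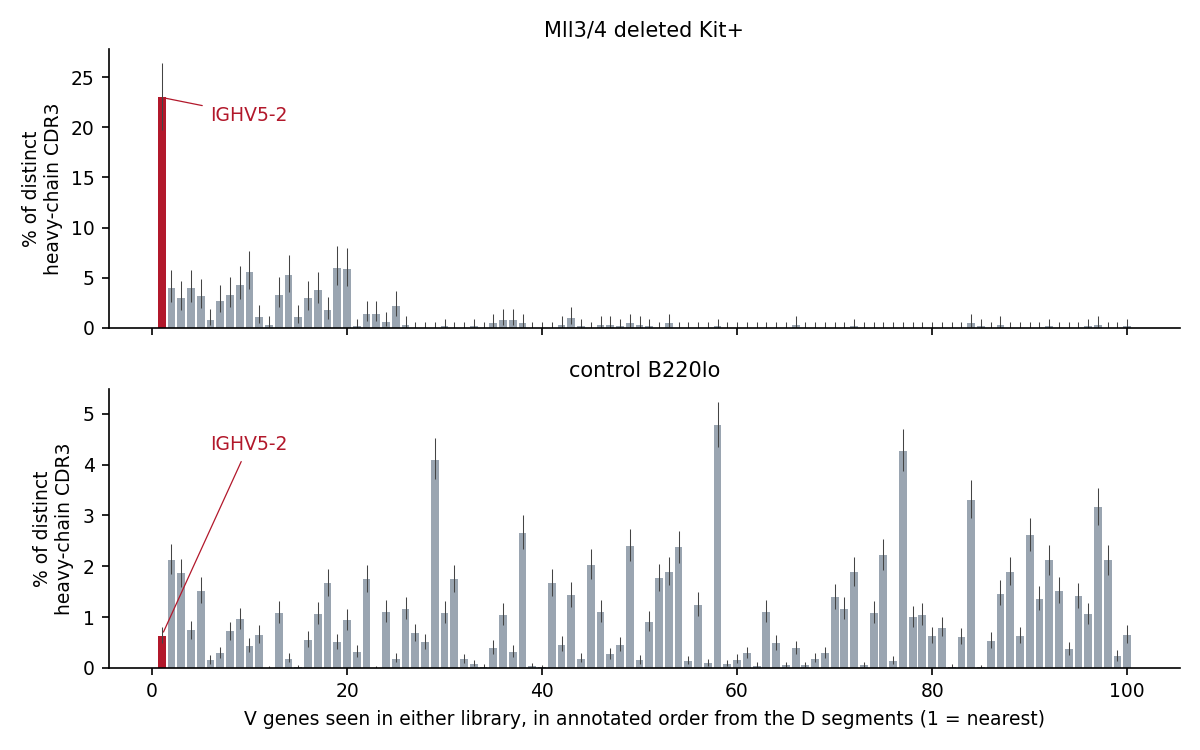
Share of distinct heavy-chain CDR3 sequences (vertical axis, percent, with exact 95% intervals) for each of the 100 V genes in annotated order from the D segments. IGHV5-2 (red) held 23.0% in the Mll3/4 deleted Kit+ library and 0.630% in the control B220lo library, and the panels have different vertical scales.

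The end GGGCCGACTTTGACTACTGG, called end 1, was found in 1657 of 3393 heavy-chain contigs of the deleted library, 48.8% (47.1% to 50.5%). It was joined to 22 V genes in 56 clones, all of them with IGHJ2. IGHV5-2 accounted for 916 of these contigs in 11 clones, followed by IGHV11-2 with 172 cells, IGHV5-15 with 170, IGHV7-1 with 142 and IGHV2-6-8 with 108. End 2, GACCCCACTGG, was found in 373 contigs, 11.0%, over 36 clones and 16 V genes, and IGHV5-2 made up 254 of them in 3 clones. Both ends were taken from the 4 largest IGHV5-2 clones after seeing the sequences, as the stretch matching germline J plus the 6 bases before it.

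Among IGHV5-2 cells 63.3% carried end 1 and 17.6% end 2, against 38.1% and 6.12% of cells with other heavy chains. The ends came from the 4 largest IGHV5-2 clones, which held 78.1% of the IGHV5-2 cells, so this excess was largely set by the choice. By clones no such excess was seen. End 1 was in 11 IGHV5-2 clones, 7.59%, and in 45 other clones, 9.22%. End 2 was in 3, 2.07%, and in 33, 6.76%. No intervals were computed for these clone shares, which rest on few IGHV5-2 clones. The B220lo library had 0 of 9810 contigs with either end, which allows a share of up to 0.0306%. The commonest end there, by the same rule, was in 67 cells, 0.683% of contigs. Ends joined to several V genes were found there as well, with up to 37 V genes on 1 end. Ends on at least 5 V genes held 19.9% of contigs there and 70.3% in the deleted library.

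In the clones of end 1 the D segment that matched over at least 6 bases was Ighd4-1 in 44 of the 45 clones with a D match. Deleted clones 1 to 5 all matched Ighd4-1 and IGHJ2 with 3 bases between the D and the J match. They differed on the V side: clone 1 had 0 bases between the V and the D match, clone 2 had 6, clone 3 had 7, clone 4 had 2 and clone 5 had 0. Cells that share an end thus shared the D-J side of the junction and differed in V gene or in the V-D joint. Without contigs that carry either end, the IGHV5-2 share was 20.3% of contigs and 24.2% of distinct CDR3. Both values leave out the 4 largest IGHV5-2 clones by definition.

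**Figure D2:**
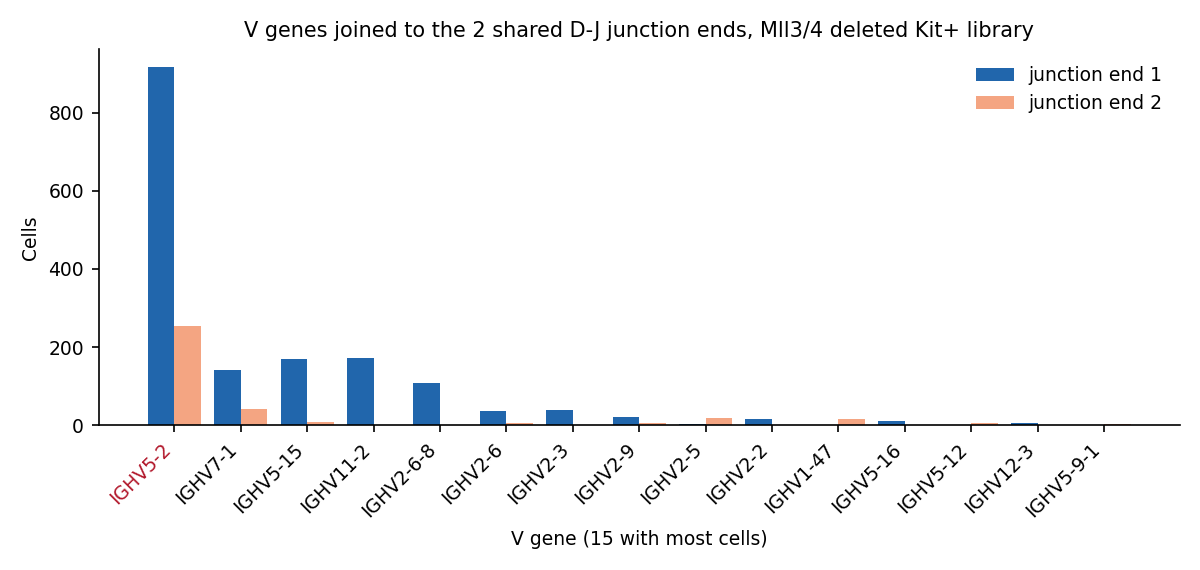
Cells (vertical axis) of the Mll3/4 deleted Kit+ library whose CDR3 carries junction end 1 (blue) or end 2 (orange), for the 15 V genes with most such cells. IGHV5-2 had 916 and 254 cells, and the next highest bar is IGHV11-2 with 172 cells of end 1.

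Clone sizes in the deleted library were uneven, and more so for IGHV5-2 than for other heavy chains. The 1447 IGHV5-2 cells fell into 145 clones, of which 100 were single cells and 10 held at least 10 cells. The 4 largest clones held 78.1% of the IGHV5-2 cells, and the largest alone held 31.0% (28.6% to 33.4%). The 1946 other cells fell into 488 clones, of which 380 were single cells and 26 held at least 10, and their largest clone had 170 cells. The 4 largest of those clones held 25.8% of the cells. Both junction ends were taken from the 4 largest IGHV5-2 clones, so leaving them out removes those clones by definition and cannot test the order. Without contigs that carry either junction end the largest clone held 7.22% of IGHV5-2 cells against 11.5% of others. Clones of at least 10 cells then held 24.9% against 49.4%, and clones of at least 2 cells 65.7% against 69.2%.

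In the B220lo library 56 of the 59 IGHV5-2 clones were single cells and 3 held 2 cells. The 9351 other clones there included 9103 single cells, and the largest had 22 cells, 0.226% of the 9748 other heavy-chain contigs. These clone shares count a cell once for each of its heavy chains. The largest clone held 0.0846% with contigs of at least 3 UMIs. With the deposited clonotype identifier, which counts each cell once, it held 0.121% of cells. Clones of 2 or more cells held 9.68% of IGHV5-2 contigs (3.63% to 19.9%) and 6.62% of other contigs (6.13% to 7.13%), and these intervals overlap. The order turned with barcodes of exactly 1 heavy chain, at 4.08% against 5.58%, and with the deposited clonotype identifier, at 0% against 1.18% of cells. One CDR3 sequence was found in both libraries, in 1 cell of each, with 18 UMIs in the deleted and 49 in the B220lo cell. It was an IGHV5-2 sequence with IGHJ3, and the only one of all heavy-chain CDR3 found in both.
Found in both: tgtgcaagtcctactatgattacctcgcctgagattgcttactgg
Its 2 cells had different barcodes. In all, 35 heavy-chain barcodes and 345 barcodes of the count matrices occurred in both libraries, and 0 barcodes carried IGHV5-2 in both.

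**Figure D3:**
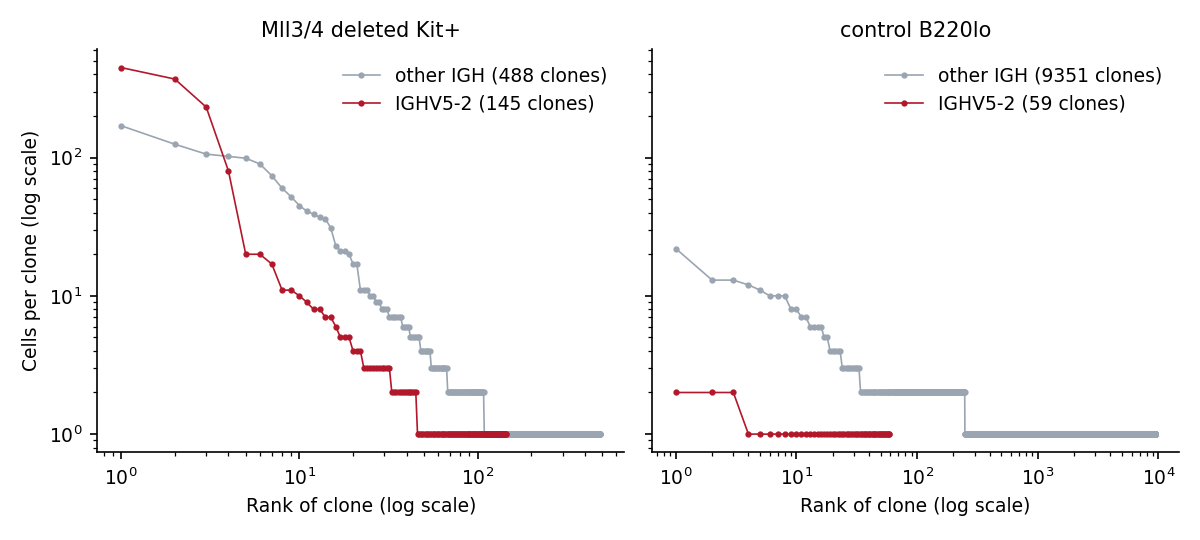
Cells per clone (vertical axis, log scale) against the rank of the clone (horizontal axis, log scale) for IGHV5-2 (red) and all other heavy chains (grey). In the Mll3/4 deleted Kit+ library the IGHV5-2 curve starts at 448 cells and the other curve at 170, and in the control B220lo library they start at 2 and 22.

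J segment use depended on whether contigs or distinct sequences were counted. In the deleted library IGHJ2 was used by 89.6% of IGHV5-2 contigs (87.9% to 91.1%) and 73.7% of other contigs (71.7% to 75.6%). Over distinct CDR3 the shares were 43.4% (35.2% to 51.9%) and 50.3% (45.8% to 54.8%), with overlapping intervals. Deleted clones 1 to 7, the largest, all used IGHJ2. IGHJ4, the J segment farthest from D, was used by 30.3% of distinct IGHV5-2 sequences (23.0% to 38.5%) and 19.3% of others (15.9% to 23.1%). These intervals overlapped as well, at their edges.

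Among B220lo cells 22.0% of distinct IGHV5-2 sequences used IGHJ2 (12.3% to 34.7%), below the 38.7% of other sequences (37.7% to 39.7%). IGHJ1 was used by 32.2% (20.6% to 45.6%) against 21.2%, and IGHJ3 by 33.9% (22.1% to 47.4%) against 24.3%. Only the IGHJ2 interval stood clear of that of the other heavy chains, and 59 IGHV5-2 sequences give wide intervals.

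**Figure D4:**
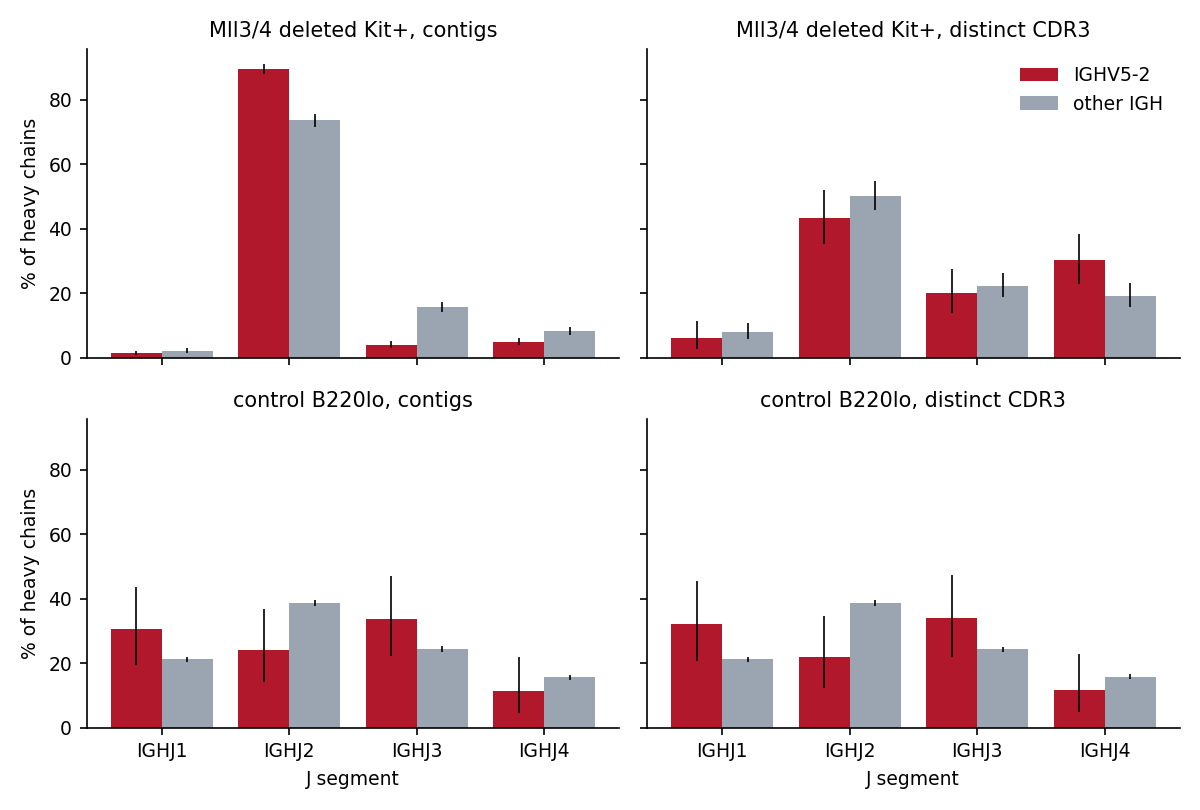
Share of heavy chains (vertical axis, percent, with exact 95% intervals) that use each J segment, for IGHV5-2 (red) and other heavy chains (grey), over contigs (left) and over distinct CDR3 (right). IGHJ2 stands at 89.6% of IGHV5-2 contigs of the Mll3/4 deleted Kit+ library but at 43.4% of its distinct sequences.

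Counted once per sequence, median CDR3 length was 39 or 42 bases. The median over distinct IGHV5-2 sequences was 42 bases in the deleted library, against 39 for other heavy chains, and 39 against 42 in the B220lo library. Neither difference remained under every setting: without the shared junction ends both deleted medians were 42, and with exactly 1 heavy chain both B220lo medians were 42. The means were 41.4 ± 8.37 (SD, n = 145 sequences) against 40.7 ± 9.14 in the deleted library, and 39.3 ± 7.06 (SD, n = 59) against 41.1 ± 8.51 in the B220lo library. By contigs the deleted library had a median of 36 bases for both, the length of clones 1 and 4.

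Bases kept and added at the joints were also counted. Germline V bases kept in the CDR3 had a median of 10 of at most 11 for IGHV5-2 clones in both libraries. In the deleted library a median of 3 bases separated V from D in IGHV5-2 clones and 4 in others, and 3 separated D from J in both. B220lo clones had a median of 14 bases between V and J with IGHV5-2 and 17 with other V genes, and 2 and 3 between D and J. Ighd4-1, the D segment of the large clones, was the match in 17.5% of the 114 IGHV5-2 clones with a D match (11.1% to 25.8%) and 26.1% of the 372 other clones with one (21.7% to 30.9%) in the deleted library. The corresponding B220lo shares were 11.4% of 44 (3.79% to 24.6%) and 20.2% of 7160.

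Median heavy-chain UMIs per contig were similar in the deleted library and higher for IGHV5-2 in the other, where the means stood in the opposite order. The median was 21 UMIs (unique molecules) per contig for IGHV5-2 and 22 for other heavy chains in the deleted library, with ranges of 1 to 111 and 2 to 152. For B220lo cells it was 19 (16 to 21) for IGHV5-2 and 14 for others. There the means were 18.4 and 61.2, and the highest IGHV5-2 contig had 49 UMIs and the highest other contig 10225. Median reads per IGHV5-2 contig were 5352 in the deleted library and 637 in the B220lo library, so contigs of the first were sequenced far more deeply.

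Nearly all IGHV5-2 contigs carried the IgM constant region, IGHM. It was assigned to 1445 of 1447 in the deleted library and 60 of 62 in the B220lo library, and the remaining 2 in each had no constant gene listed. Among the other B220lo contigs 302 carried an IGHA gene, 81 IGHD and 48 an IGHG gene. Those classes made up 4.42% of the other B220lo contigs and 0 of the 62 with IGHV5-2, which allows a share of up to 4.84%, so no difference was detectable at this depth.

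Light chains were almost absent from the member cells of the deleted library and common in those of the B220lo library. A kappa or lambda contig was found with 4 of 1447 IGHV5-2 cells, 0.276% (0.0754% to 0.706%), and with 18 of 1946 other heavy-chain cells, 0.925% (0.549% to 1.46%), in the deleted library. The 4 light-chain contigs had a median of 2 UMIs, and those of the other cells 17. By clones the shares were 2.76% of 145 and 3.28% of 488.

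Of the B220lo cells with IGHV5-2, 50 of 62 had a light chain, 80.6% (68.6% to 89.6%), an interval that holds the 80.2% of other heavy-chain cells. With exactly 1 heavy chain per barcode the shares were 75.5% and 78.5%. Of the paired IGHV5-2 cells 40 had a kappa and 13 a lambda chain. The share with lambda was 26% (14.6% to 40.3%) against 20.1% of other paired cells, which lies inside that interval. The 60 light-chain contigs used 33 V genes, so the pairing was diverse, with IGLV1 used 12 times. Their median was 8 UMIs, against 19 for light chains beside other heavy chains.

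A second heavy-chain contig accompanied 13 of the 62 IGHV5-2 contigs of the B220lo library, 21.0% (11.7% to 33.2%), and 14.4% of other contigs (13.7% to 15.1%). The IGHV5-2 chain had the most UMIs in 8 of these 13 barcodes. All 13 had a light chain and 5 had at least 2. Their median total was 3505 UMIs per barcode, against 2541 for IGHV5-2 barcodes with 1 heavy chain. Among the 49 barcodes with IGHV5-2 as the only heavy chain, 37 had a light chain. In the deleted library 1 of 1447 had a second heavy chain. Barcodes that hold more than 1 cell were not called, and their part in these counts was not tested.

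The transcript counts of the Ighv5-2 gene, made from the gene-expression library of each sample, matched the contigs. At least 1 Ighv5-2 UMI was found in 99.3% of IGHV5-2 cells of the deleted library, with a median of 10 and at most 52, and in all 62 of the B220lo library, with a median of 12. Cells with another heavy chain had at least 1 in 9.92% of cases in the deleted library (median depth 6818 UMIs) and in 2.20% in the B220lo library (3169 UMIs). Single UMIs were therefore not read as use of the gene in a productive heavy chain, and their source was not tested. Summed levels were 1314 CPM in IGHV5-2 cells and 16.8 CPM in cells with other heavy chains in the deleted library, and 3976 CPM and 8.53 CPM in the B220lo library.

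Gene expression was then compared between cells with IGHV5-2 and cells with another heavy chain within each library, over barcodes with exactly 1 heavy chain that passed the cell filter. In the deleted library 1444 IGHV5-2 cells with a median of 6813.5 UMIs were set against 1939 others with 6831, and few genes differed between them. Genes at least 2-fold higher in IGHV5-2 cells numbered 20 of 11768, which is 0.17%, and genes at least 2-fold lower 17, which is 0.144%, on a log2 scale with 1 CPM added. With 10 CPM added the counts were 7 and 2, with 1 cell per clone 8 and 20, and without the 4 largest IGHV5-2 clones 12 and 39. The median absolute log2 ratio over the tested genes was 0.0748.

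The early B receptor and recombination genes, 14 of 16 with enough counts, showed 0 members at least 2-fold apart in that library. Cd93, low in both kinds of cell, was at 4.25 against 7.73 CPM. Vpreb1 and Igll1, which encode the surrogate light chain, stood at 2687 and 2633 CPM and at 2548 and 2560 CPM in IGHV5-2 and other cells. Rag1 stood at 216 against 202 CPM, Dntt at 1343 against 1287 and the receptor gene Il7r at 440 against 414. Kit, the gene of the sorted surface receptor, was at 379 CPM in IGHV5-2 cells and 378 in others. The list sums were 11617 and 11369 CPM, a log2 ratio of 0.03, whose sign turned when each clone was counted by 1 cell (-0.039).

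B-lineage and cell-cycle genes were as level. Cd79a, a part of the B-cell receptor, stood at 3872 and 3840 CPM, Ebf1, a factor needed for B-cell identity, at 2003 and 1851, and Pax5, which maintains it, at 346 and 318. None of the 8 tested B-lineage genes and none of the 17 cell-cycle genes was 2-fold apart, and Mki67, a proliferation marker, was at 526 and 543 CPM. The median log2 ratio was 0.012 for the B-lineage genes and -0.044 for the cell-cycle genes, beside -0.0062 for all genes tested. With 1 cell per clone the log2 ratio of the summed B-lineage genes went from 0.046 to -0.071, and that of the summed cell-cycle genes from -0.047 to 0.0077.

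Genes of later B-cell stages were mostly low in both kinds of cell, and some were lower in IGHV5-2 cells. Of 9 tested members of that list 3 were at least 2-fold lower and 0 higher, with a median log2 ratio of -0.51. Cd74, the invariant chain of MHC class II, had 74 UMIs in IGHV5-2 cells, 5.93 CPM, and 622 in others, 36.4 CPM. The class II gene H2-Aa had 25 and 148 UMIs, and Ms4a1, encoding CD20, had 0 and 50. H2-Ab1, also of class II, went the other way at 223 against 209 CPM, and its 2781 UMIs were most of the list's 3650 in IGHV5-2 cells. In the other cells Cd74 UMIs came from 28 cells, and 1 cell held 20.4% of them, so few cells carried this difference.

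The genes with the largest higher ratios in the deleted library rested mostly on a few cells or on 1 clone. Ngp and Camp, granule proteins of neutrophils, had 1921 and 1793 UMIs in IGHV5-2 cells against 788 and 750 in others, but 1 cell held 61.9% of the Ngp and 57.8% of the Camp UMIs. Chil3 had 319 UMIs in 8 cells, with 58.6% in 1 cell, and Car1, a carbonic anhydrase of red cell precursors, had 448 UMIs in 23 cells, with 53.1% in 1. With 1 cell per clone the log2 ratio of Ngp went from 1.72 to -3.44 and that of Camp from 1.69 to -4.90. Cdh8, a cadherin, was spread over 128 cells, and 60.6% of its UMIs were in clone 1. Its log2 ratio went from 2.06 to -0.15 with 1 cell per clone.

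Lower in IGHV5-2 cells were also Grb10, an adaptor of receptor signalling, with 78 against 397 UMIs, Fcrl1 with 30 against 119, and Irf8, a transcription factor, with 68 against 228. For Grb10 1 clone of 99 cells held 43.1% of the UMIs in the other cells, and its log2 ratio of -1.74 became 0.21 with 1 cell per clone. Fcrl1 and Irf8 were spread over 94 and 90 of the other cells, with at most 4.20% and 8.33% of UMIs in 1 cell and 24.4% and 16.2% in 1 clone. The granulocyte and monocyte list as a whole stood at 2122 CPM in IGHV5-2 cells and 1888 in others, with 2 of its 8 members, S100a8 and S100a9, at least 2-fold higher. Elane, Mpo and Prtn3 were at 506, 499 and 390 CPM in IGHV5-2 cells and 458, 612 and 365 in others. The part of granulocyte RNA in these ratios was not tested.

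Levels were also compared between the 4 largest IGHV5-2 clones. Early B genes summed to 11826 CPM in clone 1, 11656 in clone 2, 12763 in clone 3 and 11229 in clone 4, against 10780 in all smaller IGHV5-2 clones together. Il7r ranged from 422 CPM in clone 4 to 534 in clone 3 and was 359 in the smaller clones, and Kit ranged from 366 to 457 and was 316. The smaller clones stood below each of the 4 large ones in these 3 values, for which cells with other heavy chains stood at 11369, 414 and 378 CPM. They were also below each in Rag1 at 187 CPM, in summed B-lineage genes at 7496 and in later B genes at 257. They were not below each in Vpreb1, Igll1 or Dntt. Clone 4, of 80 cells, stood below clones 1 to 3 in Dntt at 1025 CPM against 1421 to 1474, Mki67 at 387 against 512 to 558 and cell-cycle genes at 5605 against 6648 to 7093. It was inside their range for Vpreb1, Rag1 and Cd79a, at 2594, 222 and 3969 CPM, and below it for Igll1, at 2290. Granulocyte genes summed to 2941 CPM in the smaller clones and to 1599 to 2347 in the large ones.

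In the B220lo library 47 IGHV5-2 cells (median 2552 UMIs) were compared with 8292 others (3074 UMIs), and the ratios spread more widely here. Of 1165 genes with enough counts 12 were at least 2-fold higher in IGHV5-2 cells, which is 1.03%, and 42 at least 2-fold lower, which is 3.61%. Of those 1165 genes 46.3% were higher and 53.7% lower by any amount, with a median log2 ratio of -0.039. The count needed was an expected one, set almost wholly by the 8292 other cells. Genes raised in IGHV5-2 cells could thus fail it, while genes with 0 UMIs there could pass. The counts each way are therefore partly set by this filter and cannot be weighed against each other. The median absolute log2 ratio was 0.309, against 0.0748 in the deleted library. The IGHV5-2 cells held 147171 UMIs in all here, so ratios of single genes carry more counting error. Early B genes summed to 8555 CPM (8089 to 9041) in IGHV5-2 cells and 6078 CPM (6054 to 6101) in others, a log2 ratio of 0.49. Of 7 tested members 6 were higher, 1 of them at least 2-fold. That member was Vpreb1 at 679 CPM (100 UMIs) against 241, though only 13 of the 47 cells held its UMIs and 1 cell held 35% of them. Igll1 was at 652 against 379 and Il7r at 476 against 297.

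Rag1, Rag2 and Dntt fell below the count needed and had 40, 17 and 19 UMIs in IGHV5-2 cells. They stood at 272, 116 and 129 CPM there and at 106, 51.3 and 48.1 CPM in others. Kit had 0 UMIs in the IGHV5-2 cells and stood at 6.63 CPM in others, below the 20.4 CPM that 3 UMIs make in the IGHV5-2 cells, so no difference was detectable at this depth.

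B-lineage genes summed to 12754 CPM in IGHV5-2 cells and 8709 in others, with 9 of 10 members higher and 0 at least 2-fold. Ebf1 was at 4362 CPM against 2318 and Blnk, an adaptor below the pre-B receptor, at 836 against 478. One cell held 30.4% of the Ebf1 UMIs. Smarca4, a chromatin remodeller, was at 1169 against 618 CPM, and Tmem131l at 795 against 480. They were the other genes with the highest log2 ratios, 0.92 and 0.73, among those with at least 100 UMIs in IGHV5-2 cells. That minimum makes 679 CPM there, so genes with larger ratios but fewer UMIs, such as Enpep with 22 UMIs, were not named this way. For lower genes the minimum applied to the far larger group of other cells.

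Later B surface genes and cell-cycle genes were lower in the IGHV5-2 cells of that library. Later B genes summed to 3479 CPM (3184 to 3794) against 5164, with 6 of 7 tested members lower, 3 of them at least 2-fold: Fcmr, H2-Aa and H2-Eb1. Cd74 held 278 of the 512 UMIs of this list in IGHV5-2 cells. Tnfrsf13c was level at 183 against 181 CPM, and the log2 intervals of Ms4a1 and H2-Ab1 included 0. Of members below the count needed, Ighd (16 UMIs) was higher at 109 against 60.3 CPM. Ccr7 (12 UMIs) was also higher, at 81.5 against 54.5, and the rest were lower. Cell-cycle genes summed to 3798 CPM (3490 to 4127) against 6125, with 11 of 12 lower. Rrm2, a subunit of ribonucleotide reductase, was at 68.0 CPM against 210, Stmn1 at 170 against 388 and Tubb5 at 557 against 1173, while Ccnd3, a G1 cyclin, was at 421 against 380.

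Several markers of other cell types were lower as well. The 8 granulocyte genes had 33 UMIs in IGHV5-2 cells, 224 CPM (154 to 315), against 2312 CPM in others. Plasma cell genes were at 673 against 2914 CPM, and Jchain, which links IgM pentamers and IgA dimers, at 136 against 2263. Jchain held 94565 of the 121725 plasma cell UMIs in the other cells, while Mzb1 was at 428 against 480 CPM and Sdc1 at 27.2 against 26.8. Hbb-bt, Ccl5, Prtn3, Ly6a and Alox5ap had 0 UMIs in the IGHV5-2 cells. In the other cells they stood 8.004-fold, 5.93-fold, 5.51-fold, 2.46-fold and 2.45-fold above a floor of 3 UMIs over the IGHV5-2 group, 20.4 CPM. Only 267, 472, 433, 497 and 605 of the 8292 other cells held their UMIs, so 0 over 47 cells sets no firm fold. Among the other cells 1 held 51.1% of the Hbb-bt UMIs. The part of these other cell types in the B220lo ratios was not tested.

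**Figure D5:**
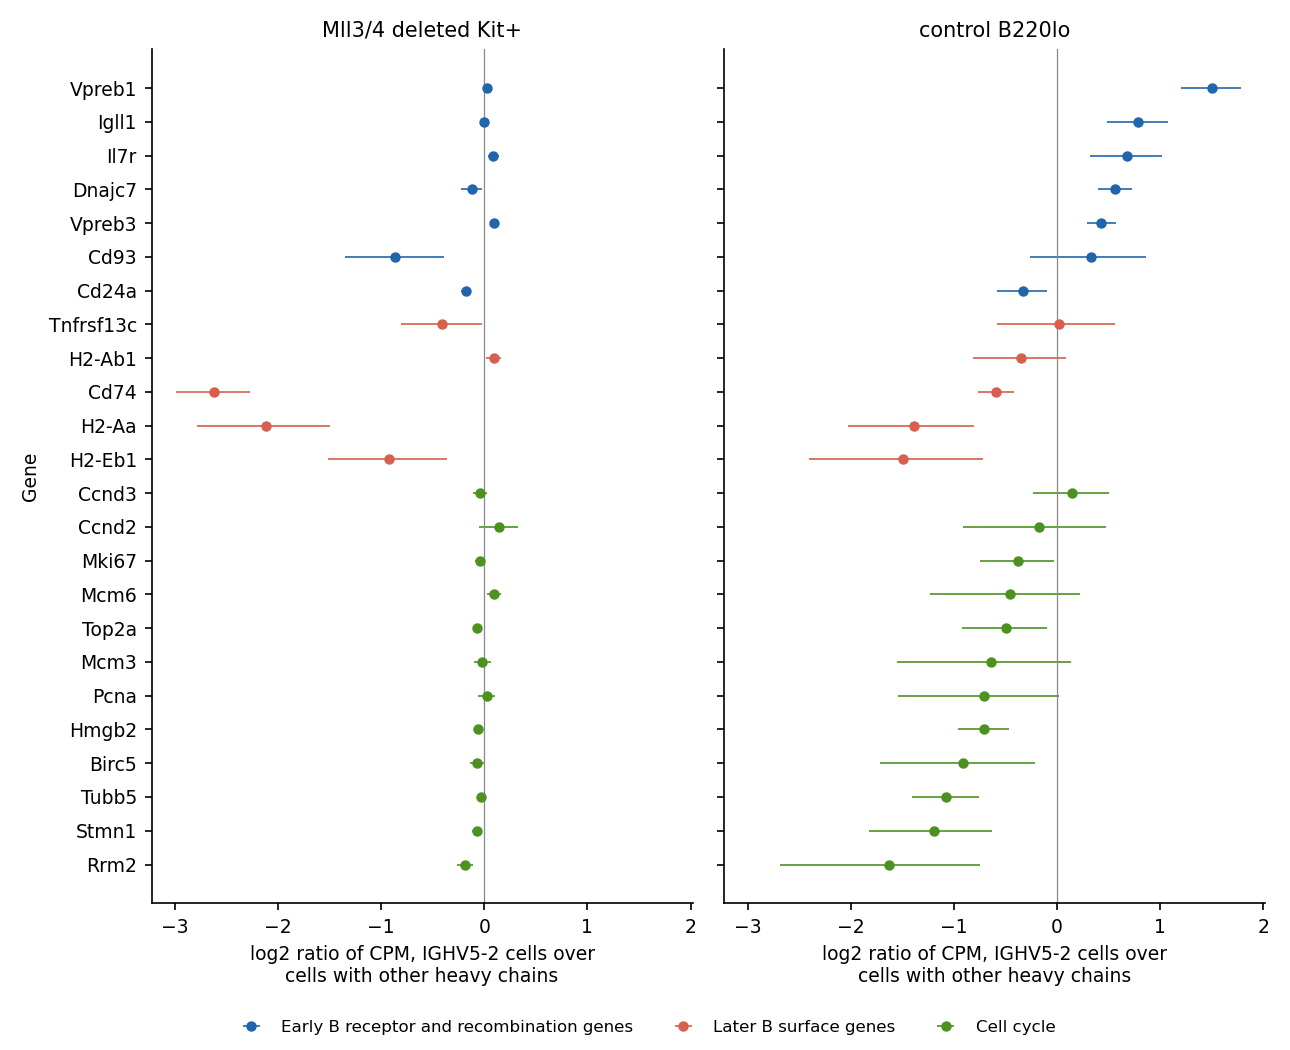
Log2 ratio of CPM (horizontal axis) between cells with IGHV5-2 and cells with other heavy chains, with exact 95% counting intervals, for genes of 3 lists with enough counts and above 0 in both libraries. In the Mll3/4 deleted Kit+ library most points sit near 0 apart from later B genes such as Cd74 and the early B gene Cd93, and in the control B220lo library Vpreb1 is highest and Rrm2 lowest.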

How the data were processed

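The labels give 4 libraries, 1 per group, so no test was run. The deposited matrices hold UMI counts per gene and barcode, and the deposited contig tables hold reads and UMI counts per immunoglobulin contig. They were made with Cell Ranger 7.1.0 on mm10, per the submitters' processing notes, and the version of the V(D)J reference is not given in the sources used here. The tables list productive, high-confidence contigs, so non-productive joins were not analysed here. Barcodes numbered 12205 to 16861 per library, with median depths of 3272 to 12148 UMIs.

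Clones were defined by V gene, J gene and CDR3 nucleotides. Germline V, D and J pieces came from GENCODE M21 transcripts, and a D match needed 6 bases. For gene expression, barcodes were summed that had exactly 1 heavy chain, a minimum of 1000 UMIs and 500 genes, and no more than 10% of UMIs from mitochondrial genes, and doublets were not called. Log2 ratios carried 1 CPM, which understates changes of low genes, and genes needed 20 expected UMIs in the IGHV5-2 cells. The expected count came from a gene's share of UMIs over both kinds of cell together. Named transcripts were the 5 largest ratios each way with at least 100 UMIs in the higher group, leaving out immunoglobulin segments, T-cell receptor, mitochondrial, ribosomal protein and predicted genes. Named V genes were the 5 most used in each library, the 3 nearest IGHV5-2 in ratio with at least 30 distinct CDR3, and its 4 nearest neighbours, and named clones the 3 largest of each library and any CDR3 found in both. Other clones and list genes in the text were chosen after their values were seen. The ratio step was tested on simulated data. Alternatives were other contig filters, clone definitions, cell filters, pseudocounts and totals. The members and gene lists were chosen with earlier results of these data known. Python 3.11.15, pandas 2.3.3, numpy 2.4.6, scipy 1.17.1 and matplotlib 3.10.9 were used.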

Additional observations from a re-analysis of the deposited data

Results flagged for a closer look

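Barcodes of the deleted library without any heavy-chain contig are not part of the comparisons above. Of these 11699 barcodes, 2.25% (1.99% to 2.53%) had at least 5 Ighv5-2 UMIs, against 0.206% (0.0561% to 0.526%) of the 1945 barcodes with another heavy chain, at median depths of 6739 and 6818 UMIs. In the B220lo library the shares were 0.322% of 7757 and 0.111% of 9042. Among IGHV5-2 cells themselves 85.9% in the deleted and 91.9% in the B220lo library reached 5 UMIs. Any Ighv5-2 UMI was found in 16.4% of the deleted barcodes without a heavy chain. The same held for 0 of 12171 control Kit+ barcodes and 2 of 12321 Mll3/4SI Kit+ barcodes without one. Of 34 control Kit+ barcodes with another heavy chain, 1 had 3 UMIs.

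Some differences between IGHV5-2 and other heavy chains pointed opposite ways in the deleted and the B220lo library, and the difference between libraries was not tested. By contigs, in percentage points of IGHV5-2 minus other, IGHJ2 was 15.9 higher in the deleted library and at -14.6 in the B220lo library. By distinct CDR3 it was lower with IGHV5-2 in both (43.4% against 50.3% and 22.0% against 38.7%), and without the shared junction ends the deleted contigs also turned to 45.5% against 52.9%. Those ends were taken from the 4 largest IGHV5-2 clones, all with IGHJ2, so values without them depend in part on that choice. IGHJ1 stood at -0.689 and 9.42, and the deleted value turned without those ends (7.94% against 3.96%). IGHJ3 stood at -11.7 and 9.45. By distinct CDR3, IGHJ1 stood at -1.80 and 11.0, IGHJ3 at -2.38 and 9.61, and IGHJ4 at 11.0 and -3.93. In each of these comparisons by distinct CDR3 the intervals of IGHV5-2 and other heavy chains overlapped. The IGHM share stood at -0.0868 and 3.54, and both deleted shares were 100% without those ends. The share of cells with a light chain stood at -0.649 and 0.469, and the B220lo order turned with exactly 1 heavy chain (75.5% against 78.5%). The share of contigs in clones of 10 or more cells stood at 18.5 and -1.04. The first turned without the shared junction ends (24.9% against 49.4%), and with contigs of at least 3 UMIs both B220lo shares were 0%. Intervals also overlapped in both libraries for IGHJ1 by contigs, the IGHM share and the share with a light chain. In the B220lo library they overlapped for IGHJ3 by contigs and for clones of 10 or more cells. Median CDR3 length stood at 3 and -3 bases, with medians equal at 42 in the deleted library without the shared ends and in the B220lo library with exactly 1 heavy chain, and median UMIs per contig at -1 and 5, with the deleted medians at 26 against 23.5 without those ends.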

How the results depend on the processing

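Filters on the contigs left the IGHV5-2 shares almost in place. With barcodes of exactly 1 heavy chain, contigs of at least 3 UMIs, barcodes passing the cell filter or distinct V, J and CDR3 combinations, the share of distinct CDR3 ranged from 22.9% to 23.0% in the deleted and from 0.593% to 0.628% in the B220lo library. Without contigs carrying either junction end, an alternative chosen after seeing the data, values of IGHV5-2 in the deleted library became 20.3% of contigs and 20.3% of barcodes, 45.5% IGHJ2, 65.7% of cells in clones of 2 or more, 24.9% in clones of 10 or more, 7.22% in the largest clone, 0.722% with a light chain, 100% IGHM and a median of 26 UMIs. Those of other heavy chains became 52.9% IGHJ2 by contigs and 40.98% by distinct CDR3, 69.2%, 49.4% and 11.5% for the clone measures, 100% IGHM and 23.5 UMIs. IGHJ2 by contigs and all 3 clone measures were then lower in IGHV5-2 than in other heavy chains. The ends were taken from the 4 largest IGHV5-2 clones, all with IGHJ2, so this follows in part from that choice.

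With the deposited clonotype identifier, cells in clones of 2 or more were 89.2% (IGHV5-2) and 74.0% (other) in the deleted library and 0% and 1.18% in the B220lo library, where other chains had 0.121% in clones of 10 or more and 0.121% in the largest. For other B220lo chains, exactly 1 heavy chain gave 5.58% and 0.311% in clones of 2 and of 10 or more, and light chains in 78.5% of barcodes and 78.4% of clones. At least 3 UMIs gave 4.77%, 0% and 0.0846% for the clone measures and 94.7% IGHM.

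In the deleted library a pseudocount of 10 CPM left 7 genes 2-fold higher and 2 lower. With 1 cell per clone 8 were higher, and log2 ratios of list sums were -0.039 for early B, -0.071 for B-lineage, -0.82 for later B and 0.0077 for cell-cycle genes. Without the 4 largest IGHV5-2 clones, also chosen after seeing the data, 12 were higher and 39 lower, and the sums were -0.077, -0.048, -0.37 and 0.0402. Cdh8 (-0.15), Ngp (-3.44), Camp (-4.90) and Grb10 (0.21) changed sign with 1 cell per clone. In the B220lo library no list sum or count moved beyond its interval or 1.5 times under the alternatives run. With 1 cell per clone 46 of the 47 IGHV5-2 cells stayed, so that setting could change little. No alternative left out the single cells that held much of the Vpreb1 and Ebf1 UMIs. The cause of the shifts in the deleted library was not tested. No paired analysis was possible because each group had 1 library. With 62 IGHV5-2 contigs and 47 cells, the B220lo library limits the precision of each of its shares.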
